A study of Mus musculus with 10 samples.

Results

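In untreated mouse cortical neurons RNA polymerase III was listed at 2486 places beside protein-coding genes where TFIIIC was also listed, and where the list from depolarized neurons held no polymerase III region. RNA polymerase III was followed by chromatin immunoprecipitation and sequencing (ChIP-seq) of Rpc155, its largest subunit, and TFIIIC by its DNA-binding subunit Gtf3c1. Both groups were primary neurons from the cortex of C57BL/6J mice, at day 6 in vitro and after a night in 3% serum. KCl was added to one group for 45 min at 50 mM to depolarize the cells, and the other was left untreated. H3K27ac and H3K4me1 were mapped in the same conditions. Each antibody gave 1 deposited peak list per condition, although the design text states 3 biological replicates. No spread between replicates can be had from single lists, so differences between conditions are described without a test. The 2486 regions were chosen from the lists themselves. Of 12531 untreated Rpc155 regions 12511 lay on chromosomes 1 to 19, and of those 10322 overlapped no KCl region of Rpc155. Of these, 7560 shared at least 1 bp with an untreated Gtf3c1 region, and in 2486 the summit lay within 1 kb of the start or end of a RefSeq protein-coding gene. Such regions are called lost below, which means only that they are absent from the KCl list, and 642 regions that met the same criteria but overlapped a KCl region of Rpc155 are called kept.

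RNA polymerase III makes tRNAs, 5S rRNA and other short RNAs. At tRNA genes TFIIIC binds the internal A and B boxes and places TFIIIB, which recruits the polymerase. Protein-coding genes are transcribed by RNA polymerase II, and their active promoters carry H3K27ac, while H3K4me1 is typical of enhancers and of the flanks of promoters. KCl opens voltage-gated calcium channels of neurons and induces immediate-early genes.

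The promoters of the strongest lost regions, of those that hold particular sequence motifs and of a polymerase III subunit gene are shown first, since nearly all lost regions lay at gene starts. Each is the RefSeq promoter window of GRCm38.p6 (250 bases before to 50 after the start, 5′ to 3′ on the gene's strand), and the Rpc155 summit lies inside it. Capitals mark matches, on either strand, to the ETS motif CCGGAAG, the GC box GGGCGG and the B box core GGTTCGA. The first 4 windows belong to the strongest lost regions with a summit in a window, the next pair to the strongest with ETS letters, the pair after that to the strongest with B box letters, and the last to the strongest among polymerase III machinery genes with such a window.
Mrpl1, chr5:96209865-96210164, plus strand: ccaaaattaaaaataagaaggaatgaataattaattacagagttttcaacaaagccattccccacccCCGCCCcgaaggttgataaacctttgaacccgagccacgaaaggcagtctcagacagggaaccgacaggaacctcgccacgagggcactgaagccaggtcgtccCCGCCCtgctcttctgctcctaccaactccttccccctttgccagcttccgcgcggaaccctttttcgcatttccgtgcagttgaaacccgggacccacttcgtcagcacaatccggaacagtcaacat
Qrich1, chr9:108516837-108517136, plus strand: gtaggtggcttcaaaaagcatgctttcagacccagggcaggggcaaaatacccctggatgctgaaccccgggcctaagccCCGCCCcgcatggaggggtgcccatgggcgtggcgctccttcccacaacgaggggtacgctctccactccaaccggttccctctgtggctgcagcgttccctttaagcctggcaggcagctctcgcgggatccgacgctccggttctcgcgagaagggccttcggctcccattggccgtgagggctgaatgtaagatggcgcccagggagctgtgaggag
Atp5pb, chr3:105959214-105959513, minus strand: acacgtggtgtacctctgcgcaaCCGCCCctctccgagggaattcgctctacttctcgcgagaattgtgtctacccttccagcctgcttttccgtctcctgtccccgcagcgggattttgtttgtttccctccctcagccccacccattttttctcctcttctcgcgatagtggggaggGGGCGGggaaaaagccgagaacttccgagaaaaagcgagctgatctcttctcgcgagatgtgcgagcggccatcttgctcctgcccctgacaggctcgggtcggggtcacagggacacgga
Taf6, chr5:138187177-138187476, minus strand: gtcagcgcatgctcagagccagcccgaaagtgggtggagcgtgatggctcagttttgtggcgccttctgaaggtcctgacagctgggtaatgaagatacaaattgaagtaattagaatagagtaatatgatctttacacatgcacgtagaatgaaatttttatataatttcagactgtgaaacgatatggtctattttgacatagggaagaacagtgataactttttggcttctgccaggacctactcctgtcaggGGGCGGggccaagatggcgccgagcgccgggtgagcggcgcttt
Ints12, chr3:133091605-133091904, plus strand: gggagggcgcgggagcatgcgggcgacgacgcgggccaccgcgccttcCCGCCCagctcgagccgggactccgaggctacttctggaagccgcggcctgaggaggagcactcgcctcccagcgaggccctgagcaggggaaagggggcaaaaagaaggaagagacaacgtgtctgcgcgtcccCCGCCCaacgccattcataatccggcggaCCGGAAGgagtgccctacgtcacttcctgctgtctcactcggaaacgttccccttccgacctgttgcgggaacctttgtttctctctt
Senp1, chr15:98093326-98093625, minus strand: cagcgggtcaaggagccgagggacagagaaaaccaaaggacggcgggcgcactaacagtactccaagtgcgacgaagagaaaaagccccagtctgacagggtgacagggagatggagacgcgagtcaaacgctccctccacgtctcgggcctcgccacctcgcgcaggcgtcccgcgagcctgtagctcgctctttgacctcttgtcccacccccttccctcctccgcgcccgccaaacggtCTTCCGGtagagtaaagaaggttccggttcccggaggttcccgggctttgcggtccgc
Ramac, chr7:81762703-81763002, plus strand: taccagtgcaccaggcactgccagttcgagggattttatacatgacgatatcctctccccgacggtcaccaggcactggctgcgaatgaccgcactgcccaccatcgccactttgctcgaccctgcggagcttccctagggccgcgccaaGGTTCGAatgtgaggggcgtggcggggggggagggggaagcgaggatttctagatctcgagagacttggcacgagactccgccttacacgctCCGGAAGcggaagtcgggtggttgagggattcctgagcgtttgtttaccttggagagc
Grwd1, chr7:45830740-45831039, minus strand: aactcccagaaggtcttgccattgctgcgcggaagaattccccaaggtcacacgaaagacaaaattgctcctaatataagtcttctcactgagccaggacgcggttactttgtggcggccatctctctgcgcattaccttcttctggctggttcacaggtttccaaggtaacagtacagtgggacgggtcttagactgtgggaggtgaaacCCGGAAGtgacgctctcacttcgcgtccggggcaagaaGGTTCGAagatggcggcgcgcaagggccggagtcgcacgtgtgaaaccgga
Polr3f, chr2:144527495-144527794, plus strand: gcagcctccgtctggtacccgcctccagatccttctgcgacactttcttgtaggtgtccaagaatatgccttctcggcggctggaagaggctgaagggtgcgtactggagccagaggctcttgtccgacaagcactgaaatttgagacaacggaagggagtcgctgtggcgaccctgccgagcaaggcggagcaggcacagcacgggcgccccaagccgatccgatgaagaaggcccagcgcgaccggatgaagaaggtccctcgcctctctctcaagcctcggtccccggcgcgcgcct
None of the 3 marked motifs was found in the Polr3f window, and the windows of Ramac and Grwd1 held 1 ETS match and 1 B box core match each.

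The lost regions were mostly weak in the untreated list, as a description of what the choice of regions used. Their fold enrichment at the summit over the local background, the authors' value, had a median of 3.57 (quartiles 3.23 and 3.91, range 2.40 to 7.81), against 4.07 for the kept regions (3.40 and 4.92, up to 59.6). All 12511 untreated Rpc155 regions had the same median, 3.57 (quartiles 3.23 and 4.07), so low values were not particular to lost regions. Fold enrichment reached 6 in 27 lost and 104 kept regions. The fold enrichments fall on steps of 1 fragment, which gave 20 fragments at the summit of the median lost region over a background of 4.89, and 15 at the lowest (2270 regions with a whole number). The lowest KCl region of Rpc155 also had 15 fragments, over a background of 4.51. The KCl list began at a −log10 p of 4.49 and the untreated list at 3.93, and 38 lost regions lay below the KCl limit. Among all untreated Rpc155 regions 82.5% overlapped no KCl region, and among those near gene ends with Gtf3c1 the share was 79.5%. By chromosome it ran from 70.6% on chromosome 19 to 88.7% on chromosome 16. The share was 86.4% below a fold enrichment of 3.5 and 20.6% at 6 or above.

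The 10 strongest lost regions by q-value lay at genes of varied function, and Psmd5, given below with the proteasome, tied with the last of them. The first, at Mrpl1, a gene of the mitochondrial ribosome (chr5:96209816-96210492), had an untreated Rpc155 fold enrichment of 7.81. Its summit was 21 bp upstream of a RefSeq start. Gtf3c1 was not listed there with KCl and had 4.48 in untreated neurons, while H3K27ac had 8.24 with KCl and 7.11 untreated. Qrich1, which encodes a glutamine-rich protein, had an Rpc155 value of 7.30 (chr9:108516623-108517320). Its Gtf3c1 value was 7.18 with KCl and 24.9 untreated, and its H3K27ac value 12.7 with KCl and 5.86 untreated, so the factor was lower and the acetylation higher in the KCl lists. At Lsg1, a GTPase gene of ribosome export, Rpc155 had 7.13 and Gtf3c1 stood at 14.1 with KCl and 13.8 untreated. Atp5pb, which encodes a subunit of ATP synthase, has Wdr77 within 1 kb of the same summit (chr3:105958979-105959600, Rpc155 6.96). There Gtf3c1 was 4.13 with KCl and 5.01 untreated, and H3K27ac 11.1 with KCl and 6.73 untreated. Taf6, a gene of the polymerase II factor TFIID, had an Rpc155 value of 6.79 (chr5:138187112-138187767). Its Gtf3c1 values were 4.13 with KCl and 3.40 untreated. Wdfy1, Mrnip and Rps19bp1 had Rpc155 values of 7.13, 6.62 and 6.62, and at Rps19bp1 H3K27ac stood at 9.72 with KCl and 3.81 untreated. Fgf18, a growth factor gene with an Rpc155 value of 6.79, was the only one of the 10 with a lower H3K27ac value in the KCl list, at 3.77 with KCl and 4.95 untreated. At Uspl1, which encodes a SUMO protease, the region of Rpc155 value 7.30 lay 583 bp from the summit of a KCl region that it did not overlap.

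Lost regions sat on gene starts. Of 1995 lost regions whose neighbouring genes all had a known strand, 1937 had a gene start within 1 kb (97.1%, exact binomial 95% interval 96.3 to 97.8), and 58 had only a gene end. For kept regions the share was 96.8% (94.8 to 98.1). Relative to the nearest RefSeq start, alternative starts included, the summits of 1929 lost regions had a median of 13 bp downstream (interval −9 to 29, quartiles −192 and 221). Those of 470 kept regions had a median of −104 bp (−143 to −60, quartiles −377 and 131), and the intervals of the 2 medians do not overlap. Within 250 bp of a start lay 57.5% of lost (55.2 to 59.7) and 47.2% of kept summits (42.6 to 51.9). Starts on opposite strands within 1 kb, as at divergent promoters, were found at 12.9% of lost (11.4 to 14.4) and 11.1% of kept regions (8.50 to 14.2), shares whose intervals overlap. No lost region had a tRNA gene end within 1 kb, whereas 33 kept regions did (5.14%). For the lost regions an approximate limit of 3 in 2486, not an exact interval, allows a share of up to 0.121%. All these intervals cover counting error only, and 74 lost regions had the next lost summit within 1 kb, so the regions are not all independent.

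**Figure D1:**
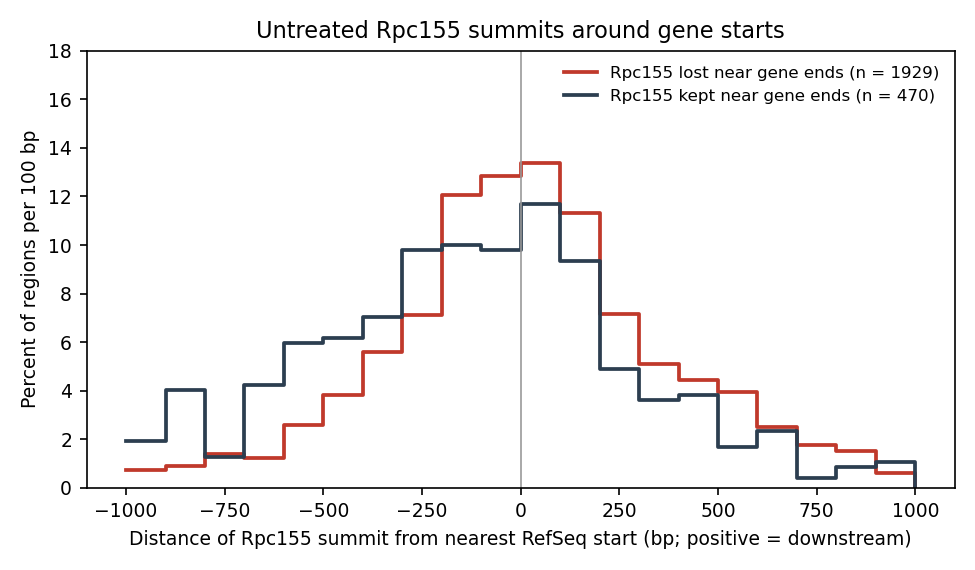
Distance of the untreated Rpc155 summit from the nearest RefSeq gene start (bp, positive downstream) against the percent of regions per 100 bp, for lost and kept regions near gene ends. Lost summits are centred on the start, with a median of 13 bp, and kept summits extend further upstream, with a median of −104 bp.

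In all, 2836 of 20665 protein-coding genes (13.7%) had a lost region; 2709 of them had 1, 123 had 2 and 4 had 3. Among the 4 were Gtf3c6, which encodes a TFIIIC subunit, Jph4, a junctophilin gene of neurons, and Zfp628, a zinc finger gene. A region of Gtf3c6 also had Rpf2 within 1 kb of its summit, and a region of Jph4 had Ap1g2. At the end of Zfp628 the Gtf3c1 value was 5.20 with KCl and 10.4 untreated. At the 1 kb limit, the regions of Kat6b, Zdhhc17 and Ndrg1 lay just inside at 995, 993 and 993 bp from a gene end with Rpc155 values of 3.06, 3.57 and 2.98. Those of Pdss1, Efnb2 and Uhmk1 lay just outside at 1004, 1004 and 1006 bp, with 3.57, 4.07 and 3.23.

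The next comparison asked whether TFIIIC left the same places. In untreated neurons the summits of Rpc155 and of the Gtf3c1 region under it were 195 bp apart at the median (quartiles 75 and 406), over 2422 distinct Gtf3c1 regions. Gtf3c1 was listed with KCl at 2133 of the 2486 lost regions (85.8%, 84.4 to 87.1). The share was 96.6% (94.9 to 97.8) at kept regions and 72.0% (70.8 to 73.2) at 5074 lost regions with Gtf3c1 away from gene ends. Over all 12511 untreated Rpc155 regions it was 68.8%, and over those with untreated Gtf3c1 80.5%. Where Gtf3c1 was listed in both conditions, its fold enrichment (the strongest overlapping region in each list) had a median of 4.66 with KCl at lost regions, and over all lost regions the untreated median was 4.30. The median log2 ratio of KCl to untreated values was 0.08 (0.06 to 0.12) at lost regions, 0.33 (0.28 to 0.38) at kept regions and −0.28 (−0.30 to −0.25) at lost regions away from gene ends. At 7749 untreated Gtf3c1 regions near gene ends with no untreated Rpc155 region it was 0.18 (0.16 to 0.20). Gtf3c1 was in the KCl list at 66.3% of these 7749 (65.3 to 67.4). Each of these sets was chosen with an untreated Gtf3c1 region required. The untreated value in the ratio was thus part of the choice, and the ratio by itself is not an unbiased measure of change. The ratio also leaves out regions with Gtf3c1 in the untreated list alone. These were 353 lost, 22 kept and 1420 lost regions away from gene ends, and 2610 of the 7749. Medians and counts of lower ratios therefore omit a different share of each set. A ratio of at least 1.5 in favour of KCl was found at 311 lost regions (14.6%), where all untreated Rpc155 regions with both values gave 13.5%. A ratio of 1.5 in favour of untreated neurons was found at 142 (6.66%), where the background was 18.5%. That background includes many regions away from gene ends. Near gene ends, kept regions gave 30.8% higher and 3.23% lower, and Gtf3c1 regions with no untreated Rpc155 gave 20.1% higher and 4.36% lower.

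Lost and kept regions were also compared in Gtf3c1 within 4 classes of untreated Rpc155 fold enrichment. Among regions with an untreated Rpc155 value below 3.5 the median log2 ratio of Gtf3c1 was 0.09 (0.06 to 0.13, n = 942) at lost and 0.31 (0.22 to 0.42, n = 167) at kept regions. From 3.5 to 4.5 it was 0.11 (0.07 to 0.14) and 0.33 (0.22 to 0.42). From 4.5 to 6 it was −0.02 (−0.10 to 0.14) at lost and 0.31 (0.18 to 0.48) at kept regions, and at 6 or above −0.0035 (−0.29 to 0.23, n = 25) and 0.36 (0.27 to 0.48, n = 104). The intervals of lost and kept regions did not overlap in any of these classes. They cover counting error over regions of single lists only. Both the classes and the division into lost and kept rest on Rpc155 values used in the choice. The comparison thus describes these lists and is not a test of a difference between conditions. The top class does not match the sets in strength, since lost regions end at 7.81 and kept regions at 59.6. Gtf3c1 regions at lost regions were 859 bp wide at the median with KCl and 755 bp untreated, and at kept regions 1170 bp with KCl and 866 bp untreated.

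Some lost regions had polymerase III nearby in the KCl list. A KCl summit of Rpc155 lay within 1 kb of 156 lost summits (6.28%) and within 5 kb of 297 (11.9%). At those 297 the median log2 ratio of Gtf3c1 was 0.28 (0.21 to 0.36), against 0.07 (0.05 to 0.09) at the other 2189, while the untreated Rpc155 value had a median of 3.57 in both. The median log2 ratio of H3K27ac was 0.49 (0.44 to 0.55) at the 297 and 0.46 (0.44 to 0.48) at the others, with overlapping intervals.

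The highest ratios of KCl to untreated Gtf3c1 included immediate-early genes. At Sik1, a salt-inducible kinase gene, the region at chr17:31856159-31856821 had a Gtf3c1 value of 25.3 with KCl and 4.66 untreated, and a KCl summit of Rpc155 lay 2033 bp away. At Heca the values were 16.3 with KCl and 3.58 untreated, and at Egr1, which encodes a zinc finger activator, 16.7 with KCl and 4.30 untreated. Foxo3, a forkhead factor gene, had 10.8 with KCl and 3.06 untreated. KCl summits of Rpc155 lay 1322, 966 and 1735 bp from the lost summits of Heca, Egr1 and Foxo3. Ing3, which encodes a subunit of an acetyltransferase complex, had 9.69 with KCl and 2.75 untreated and its nearest KCl summit 36845 bp away. The lowest ratio was at Gbp7, a gene of the interferon-induced GTPase family, with Gtf3c1 at 2.42 with KCl and 16.7 untreated. Cnnm4, a magnesium transport gene, had 3.59 with KCl and 19.9 untreated. Ppm1a, a phosphatase gene, had 3.59 with KCl and 11.8 untreated. These lay at gene starts, whereas the region of Kcnc1, a potassium channel gene, lay at the gene's end and had 2.61 with KCl and 8.77 untreated. Qrich1, given above, was also among the 5 lowest.

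**Figure D2:**
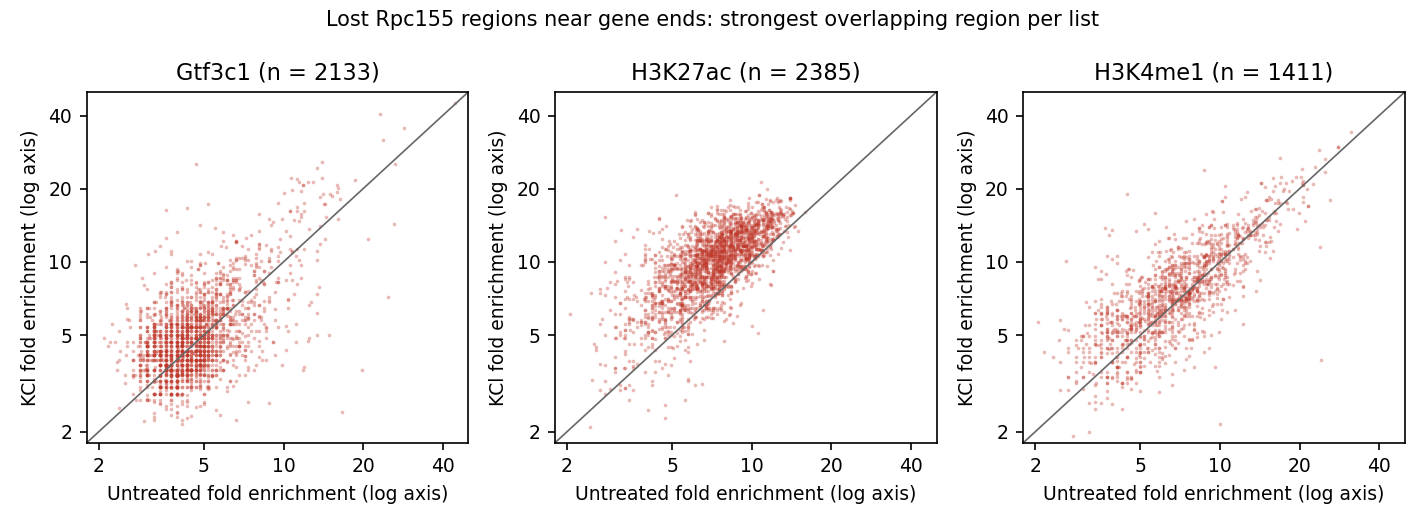
Fold enrichment of the strongest overlapping region in the KCl list (vertical, log axis) against the untreated list (horizontal, log axis) at lost Rpc155 regions near gene ends, with 1 point per region listed in both conditions. Gtf3c1 scatters around the line of equality (n = 2133), H3K27ac lies mostly above it (n = 2385) and H3K4me1 lies close to it (n = 1411).

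Nearly all lost regions were acetylated in both lists. H3K27ac was listed at 2450 lost regions with KCl (98.6%, 98.0 to 99.0) and at 2396 untreated (96.4%, 95.6 to 97.1), and 25 had it in neither list. At kept regions the shares were 98.9% with KCl and 96.1% untreated, and at lost regions away from gene ends 72.0% and 76.2%. Over all untreated Rpc155 regions the KCl share was 80.6%. Gtf3c1 regions near gene ends with no untreated Rpc155 had H3K27ac in 80.7% of cases with KCl and 73.8% untreated. The median fold enrichment of H3K27ac at lost regions was 10.3 with KCl and 7.24 untreated, and the median log2 ratio 0.46 (0.44 to 0.48). It was 0.49 (0.45 to 0.52) at kept regions, an overlapping interval, and −0.012 (−0.031 to 0.0076) at lost regions away from gene ends. At Gtf3c1 regions near gene ends with no untreated Rpc155 it was 0.52 (0.51 to 0.53). Higher values with KCl were thus also found at gene ends where no untreated Rpc155 was listed. The KCl list of Rpc155 was not used to choose that set. A ratio of at least 1.5 was found at 878 lost regions (36.8%; background 22.1%) and its inverse at 13 (0.545%; background 6.23%). Near gene ends the share at 1.5 or above was 39.1% at kept regions and 42.7% at Gtf3c1 regions with no untreated Rpc155. Both were above that of lost regions. H3K27ac regions were wider with KCl at 87.1% of lost regions, at a median of 2413 bp with KCl and 1718 bp untreated. The H3K27ac summits of the 2 conditions were over 500 bp apart at 16.6% of lost and 22.1% of kept regions.

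Acetylation was also listed where Gtf3c1 was absent from the KCl list, at 353 lost regions. H3K27ac was present with KCl at 340 of them (96.3%, 93.8 to 98.0), with a median log2 ratio of 0.41 (0.35 to 0.47). The 2133 with KCl Gtf3c1 had H3K27ac in 98.9% of cases (98.4 to 99.3) and a ratio of 0.47 (0.45 to 0.49). The untreated Gtf3c1 value had a median of 3.72 where Gtf3c1 was absent with KCl and 4.48 where it was present.

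By gene, the highest ratio of H3K27ac was at Sfxn2, a mitochondrial carrier gene with Arl3 within 1 kb, at 15.3 with KCl and 2.79 untreated. Nelfa, which encodes a subunit of the negative elongation factor, had 13.5 with KCl and 3.20 untreated. Gigyf2, a gene of translational repression, had 12.2 with KCl and 3.05 untreated. All 3 had higher Gtf3c1 values with KCl too, such as 8.25 with KCl and 4.13 untreated at Nelfa. Grk4, a receptor kinase gene with Nop14 within 1 kb, had 13.6 with KCl and 3.68 untreated, and Opa3, a mitochondrial gene, 18.8 with KCl and 5.15 untreated. The lowest ratio was at the end of Kcnc1, with 2.69 with KCl and 5.59 untreated. Shld1, a DNA repair gene, had 2.27 with KCl and 4.70 untreated. Tmem74, an autophagy gene, had 5.11 with KCl and 10.5 untreated. The region of Zranb3, a gene of replication fork repair, lay at the gene's end and had 3.12 with KCl and 6.09 untreated. Zfp825, a zinc finger gene, had 3.15 with KCl and 6.48 untreated. At Tmem74 a KCl summit of Rpc155 lay 490 bp from the lost one.

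H3K4me1 was listed at 1702 lost regions with KCl (68.5%, 66.6 to 70.3) and at 1511 untreated (60.8%, 58.8 to 62.7), and at neither in 684. Kept regions had it in 76.8% of cases with KCl (73.3 to 80.0) and 70.1% untreated, and lost regions away from gene ends in 94.1% and 93.1%. Over all untreated Rpc155 regions the KCl share was 86.3%. At Gtf3c1 regions near gene ends with no untreated Rpc155, H3K4me1 was listed in 69.5% of cases with KCl and 64.8% untreated. Its median log2 ratio was 0.12 (0.10 to 0.15) at lost, 0.15 (0.11 to 0.20) at kept and 0.03 (0.02 to 0.05) at lost regions away from gene ends. Ratios of at least 1.5 in favour of KCl were found at 12.8% of lost regions (background 8.49%). In favour of untreated neurons they were found at 4.32% (background 4.80%). Near gene ends, kept regions gave 10.9% and 3.02%. Gtf3c1 regions with no untreated Rpc155 gave 11.9% and 4.89% there, with a median log2 ratio of 0.12 (0.10 to 0.13).

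**Figure D3:**
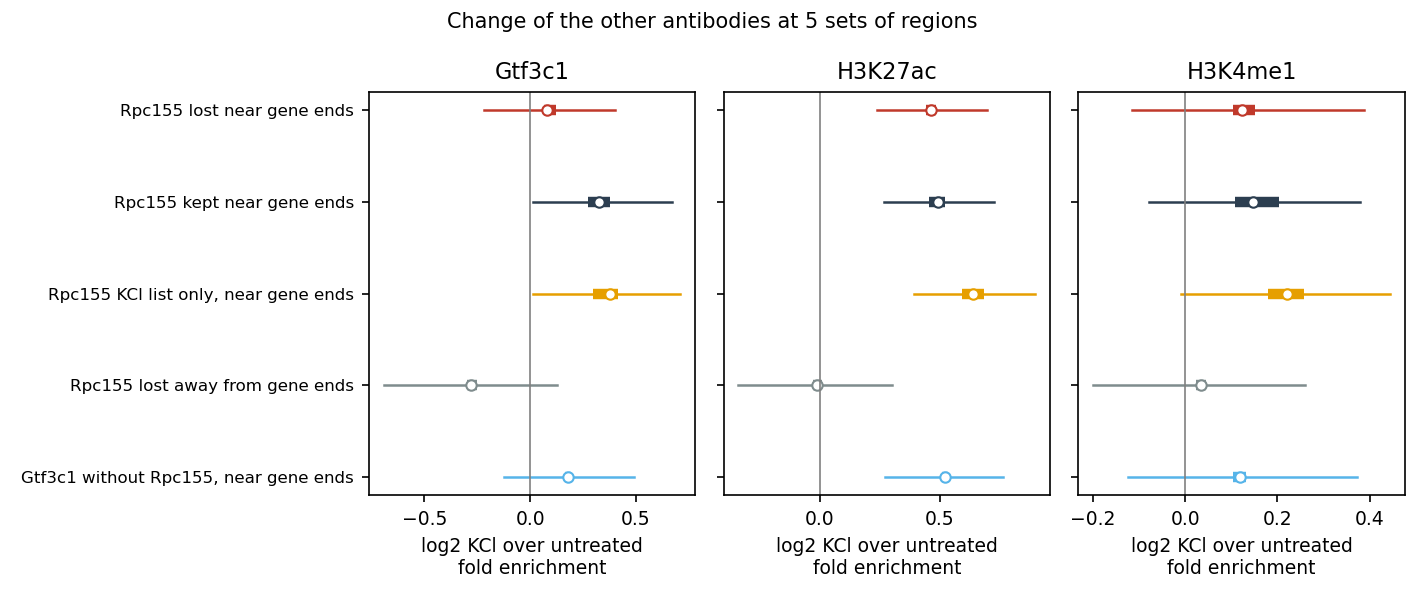
Median log2 ratio of KCl to untreated fold enrichment (circle), its exact binomial 95% interval (thick line) and the quartiles (thin line) for Gtf3c1, H3K27ac and H3K4me1 at 5 sets of regions. For Gtf3c1 the lost regions near gene ends (0.08) lie below the kept ones (0.33), while for H3K27ac the medians are 0.46 and 0.49.

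The reverse of the lost regions was a set of 618 KCl regions of Rpc155 near gene ends, with KCl Gtf3c1, that overlapped no untreated Rpc155 region. Their summits lay within 250 bp of a start in 33.1% of cases (28.8 to 37.6), against 57.5% of lost summits. The median log2 ratio of H3K27ac was 0.64 (0.59 to 0.68), above the 0.46 of lost regions. Their Gtf3c1 ratio of 0.38 is not comparable, since KCl Gtf3c1 was used to choose them. H3K27ac was not used in either choice. The 618 were however chosen from KCl lists and the lost regions from untreated ones, so their H3K27ac ratios are not matched either.

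Which genes carried the lost regions was described with 14 lists. A gene was counted when an untreated Rpc155 region over Gtf3c1 had its summit within 1 kb of either end. Of all protein-coding genes 16.9% did so (16.4 to 17.5), and of the 10179 with untreated H3K27ac near an end, 32.6% (31.7 to 33.5). Among genes with such a region 79.3% (77.9 to 80.6) had lost regions alone, and each list's share is read against that value. H3K27ac within 1 kb of an end was found at 10 neuronal marker genes of 13 with KCl and at 9 untreated. It was found at 3 astrocyte markers of 7 and 1 endothelial marker of 5 in each list. None of 7 microglial or 7 oligodendrocyte markers had it in either list. The genes were not the same in both lists. Map2, Rbfox3, Gfap and Flt1 had it with KCl alone, and Slc17a6, Aqp4 and Cdh5 in untreated neurons alone.

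Genes of the polymerase III machinery carried Rpc155 about as often as some other lists. An Rpc155 region lay at 18 of 30 (60.0%), at 17 of the 28 with H3K27ac (60.7%, 40.6 to 78.5), and 16 of the 18 (88.9%, 65.3 to 98.6) had lost regions alone. Among genes with H3K27ac the share with Rpc155 was 62.0% for ribosomal protein, 59.1% for synaptic and 57.9% for tRNA synthetase genes, beside the 32.6% of all. The 16 machinery genes held 19 lost regions. Maf1, the repressor of polymerase III, had the strongest, with an Rpc155 value of 4.92 and Gtf3c1 listed in untreated neurons only (3.76). Brf1, a TFIIIB subunit gene, had 4.75, with Gtf3c1 at 3.05 with KCl and 5.19 untreated. The subunit gene Polr3f had 4.58 (Gtf3c1 5.02 with KCl and 5.19 untreated), and Polr3a, which encodes Rpc155 itself, 4.24 (4.13 with KCl and 3.59 untreated). The others included Polr3b, Polr3g and Crcp of the polymerase, Gtf3c2 to Gtf3c6 of TFIIIC, and Snapc2, Snapc4 and Snapc5 of the snRNA-activating complex. Other genes lay within 1 kb of some of these summits, such as Sharpin at Maf1, Dzank1 at Polr3f and Mblac2 at Polr3g. Of the 19 regions 16 had Gtf3c1 and 18 had H3K27ac with KCl. The median log2 ratio of Gtf3c1 was −0.0079. Of the 16 regions with both values 0 reached 1.5 in favour of KCl and 1 in favour of untreated neurons, where all lost regions gave 14.6% and 6.66%. The median log2 ratio of H3K27ac was 0.47, near the 0.46 of all lost regions.

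Genes of protein synthesis and turnover were next. Rpc155 lay at 11 of 20 cytosolic tRNA synthetase genes, and 9 of these (81.8%, 48.2 to 97.7) had lost regions alone, led by Wars (Rpc155 4.86; Gtf3c1 4.66 with KCl and 4.73 untreated), Gars and Hars. Of 80 ribosomal protein genes 44 had Rpc155 (55.0%, 43.5 to 66.2), and 24 of the 44 (54.5%, 38.8 to 69.6) had lost regions alone, a share whose interval lies below 79.3%. The share lost also fell with Rpc155 strength, as given above. Ribosomal protein genes were not matched in strength to other genes, and whether strength accounts for their share was not tested. The strongest lost regions were at Rpl32 (Rpc155 5.43), Rps18 (4.92), Rpl10a (4.75) and Rps23 (4.75). For genes of translation factors named Eif2 to Eif5 the counts were 18 of 48 with Rpc155 and 15 with lost regions alone, including Eif4a2, an RNA helicase gene (5.43), and Eif3f (4.58). For the proteasome they were 20 of 47 and 16, with Psmd5 (6.62), Psmg1, Psmc6 and Psme3 strongest.

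In the other lists of broadly expressed genes the intervals of the share with lost regions alone all included 79.3%. Respiratory chain genes, with ATP synthase and assembly factors, had Rpc155 at 40 of 100, and 33 of these had lost regions alone (82.5%, 67.2 to 92.7), including Atp5pb, Ndufaf1 (5.09), Ndufa12 (4.92) and Atp5b (4.41). Their median log2 ratio of Gtf3c1 was −0.16. Spliceosome genes had Rpc155 at 22 of 55 and lost regions alone at 17, with Sf3a3 strongest (4.92). At Srsf5, a splicing factor gene with an Rpc155 value of 4.41, Gtf3c1 was 13.3 with KCl and 3.94 untreated, H3K27ac 21.3 with KCl and 10.8 untreated, and a KCl summit of Rpc155 lay 685 bp away. Genes of polymerase II, Mediator and its general factors had Rpc155 at 25 of 78, and 17 had lost regions alone, with Taf6, Gtf2h4 (5.60) and Med6 (5.26) strongest. Among Zfp zinc finger genes the counts were 78 of 388 and 65, led by Zfp52 (6.45). Among Rnf, Trim and Fbx genes, many of them ubiquitin ligases, they were 48 of 230 and 41, led by Rnf187 (−log10 q of 8.42) and Rnf150. Histone genes had Rpc155 at 11 of 73 and lost regions alone at 6, led by H4f16 (5.09).

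Genes of neuronal activity and synapses were compared in the same way. Of 32 immediate-early genes 11 had Rpc155 near an end and 6 had lost regions alone (54.5%, 23.4 to 83.3), an interval that includes the background. These were Klf6, Dusp1, Dusp6, Egr1, Sik1 and Srf, and 8 others had an Rpc155 region of the KCl list alone. All 7 lost regions of the 6 genes had Gtf3c1 with KCl, where 85.8% of all lost regions did. A ratio of 1.5 in favour of KCl was reached at 4 of the 7, against 14.6% of all lost regions with both values, and the median log2 ratio was 0.69, against 0.08. At Dusp1, a gene of a MAP kinase phosphatase, Gtf3c1 was 10.8 with KCl and 4.84 untreated, and at Dusp6, another, 10.4 with KCl and 6.98 untreated. Srf, which encodes serum response factor, had 3.59 with KCl and 4.30 untreated. Klf6, a zinc finger gene, had its nearest KCl summit of Rpc155 265781 bp away, while those of Egr1 and Dusp6 were at 966 and 987 bp. Of 20 delayed activity-regulated genes 3 had Rpc155 and 1, Dclk1, a lost region, with Gtf3c1 listed in untreated neurons only (6.27). Of 28 synaptic genes 14 had Rpc155 and 10 lost regions alone (71.4%, 41.9 to 91.6). Among them were Nlgn2, an adhesion gene of inhibitory synapses (Rpc155 3.74; Gtf3c1 7.36 with KCl and 5.73 untreated), Rims1, an active zone gene, and Shank2, a postsynaptic scaffold gene.

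**Figure D4:**
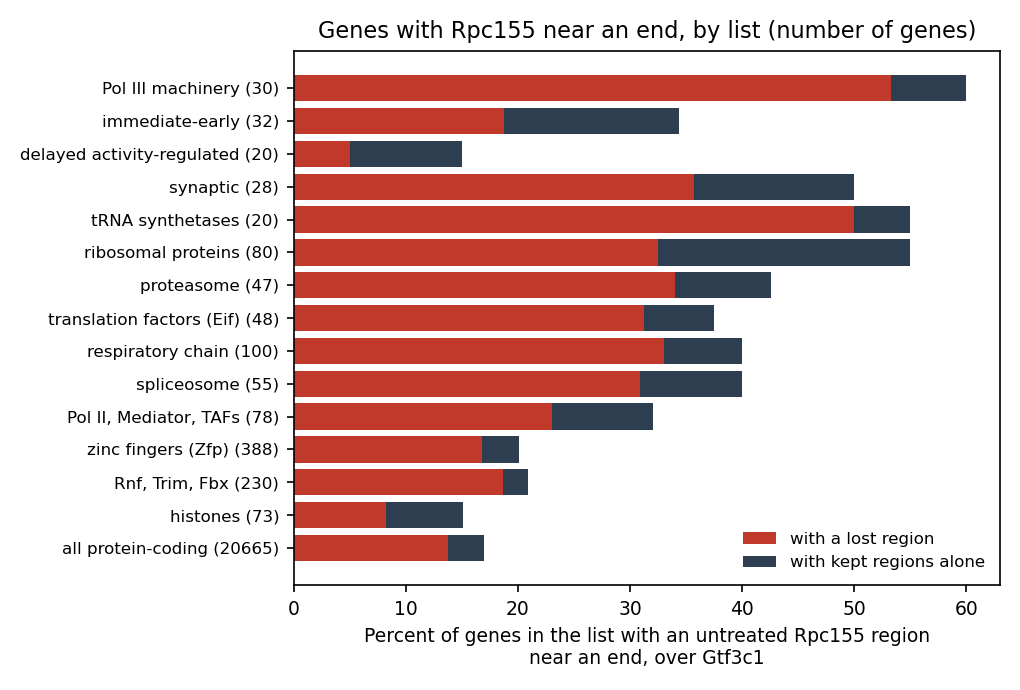
Percent of the genes of each list (number of genes in brackets) with an untreated Rpc155 region near an end over Gtf3c1, divided into genes with a lost region and genes with kept regions alone. Polymerase III machinery genes reach 60.0%, tRNA synthetase and ribosomal protein genes 55.0% each, and all protein-coding genes, many of them without H3K27ac, 16.9%.

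The RefSeq promoter windows were then searched for what the lost regions share in sequence. Windows that overlapped a lost region numbered 1730, from 1565 genes, and all protein-coding windows 20085. The windows of lost regions were rich in G and C (median 62%, against 57% over all windows) and in CpG. The observed over expected CpG ratio was above 0.6 in 85.9% of lost, 85.7% of kept and 48.9% of all windows. Windows with untreated H3K27ac and no untreated Rpc155 had a median of 63.7% G and C, and 78.9% of them passed that ratio. The ETS motif CCGGAAG was found in 28.3% of lost windows (26.2 to 30.5), 22.7% of kept (18.8 to 27.05) and 11.9% of all windows. It was in 23.0% of those with Gtf3c1 and no untreated Rpc155 (21.6 to 24.5). With H3K27ac and no untreated Rpc155 the share was 18.1% (17.2 to 19.1). The GC box GGGCGG was in 65.1% of lost (62.8 to 67.4), 60.9% of kept and 47.0% of all windows. Its share was 73.1% with Gtf3c1 and no untreated Rpc155 (71.6 to 74.6), and 69.8% with H3K27ac and no untreated Rpc155 (68.7 to 70.9). The TATA box TATAAA was in 4.68% of lost windows (3.74 to 5.79) and 12.7% of all windows. With H3K27ac and no untreated Rpc155 the share was 6.06% (5.49 to 6.66).

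The B box core GGTTCGA, part of the internal promoter of tRNA genes, was in 35 lost windows (2.02%, 1.41 to 2.80). The share was 1.82% with Gtf3c1 and no untreated Rpc155 (1.39 to 2.33), and 1.39% with H3K27ac and no untreated Rpc155 (1.12 to 1.70). Kept windows gave 0.725% (0.150 to 2.10) and all windows 1.04% (0.905 to 1.19). The cAMP response element TGACGTCA was in 3.58% of lost (2.76 to 4.57), 6.28% of kept (4.14 to 9.07), 8.55% of the KCl list alone (5.30 to 12.9) and 2.30% of all windows. CCAAT was in 32.9%, TGANTCA, the AP-1 motif, in 4.22% and AAGATGG, part of the YY1 motif, in 9.02% of lost windows. All windows gave 38.1%, 7.06% and 6.29%, and those with H3K27ac and no untreated Rpc155 gave 36.4%, 3.77% and 6.94%. Both strands were read and each motif was counted on its own, so a base can belong to 2 motifs. Windows of alternative starts or of opposite genes can share bases, so a match can be counted in more than 1 window. The intervals do not allow for this. A match is a match of letters and not a measured binding site.

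**Figure D5:**
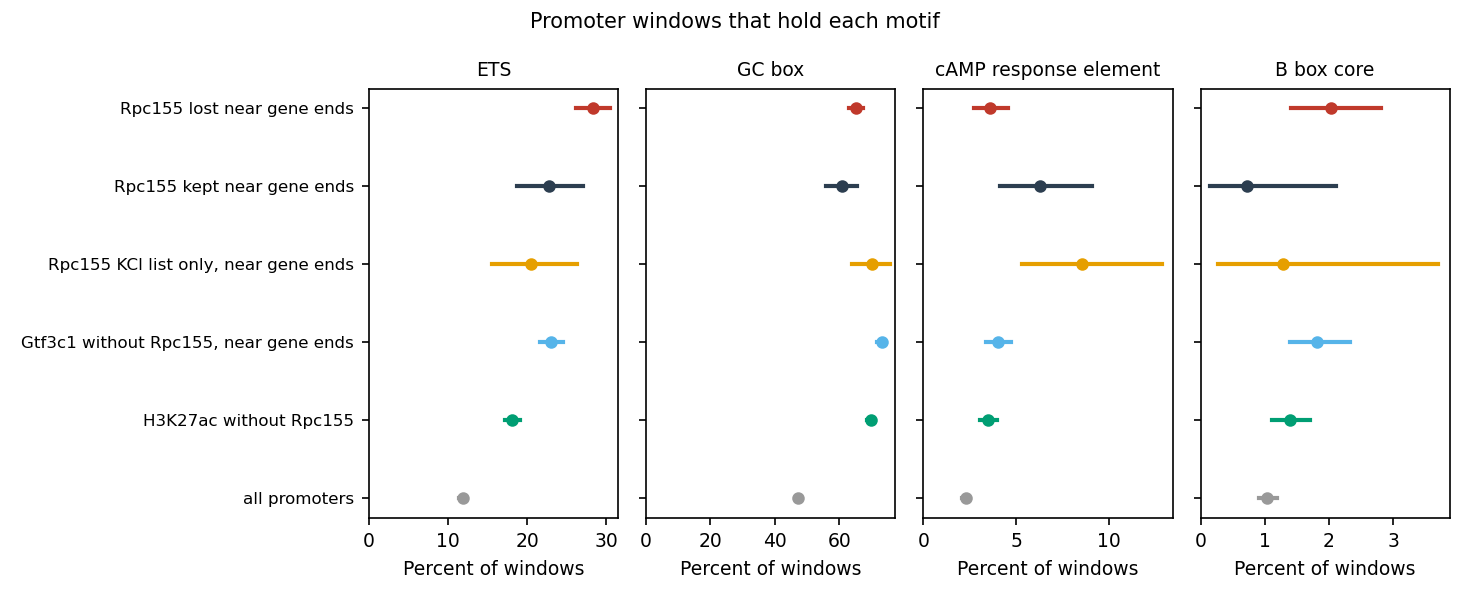
Percent of promoter windows that hold each of 4 motifs (point) with its exact binomial 95% interval (line), for windows overlapping 5 sets of regions and for all windows. ETS letters are in 28.3% of windows at lost regions and 22.7% at kept regions, and cAMP response element letters in 3.58% and 6.28%. For both motifs the intervals of lost and kept windows overlap.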

How the data were processed

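Peak lists of 4 antibodies in 2 conditions were used, 8 in all. Input libraries (total chromatin) were not used here. The submitters' processing notes name Bowtie2, MACS2 and the build GRCm38/mm10, with versions not given in the sources used here; whether replicates were pooled is not stated either. Each deposited region has a fold enrichment (a ratio over local background, at its summit). It also has the −log10 of a p-value and of a q-value as deposited, and a deposited score equal to 10 times the second of these, rounded down. The summit was taken from the deposited offset within the region. The fold enrichment of the authors was set side by side between lists without adjustment for depth, which the lists do not hold.

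Overlap meant 1 bp or more in common. For each antibody the strongest region overlapping a member was taken, so neighbouring members can share a value. Shares carry exact Clopper-Pearson 95% intervals and medians exact binomial ones, which cover counting error only. A ratio of 1.5 or its inverse was counted as higher or lower. Genes, strands (16457 of 20665 genes) and promoters came from RefSeq GRCm38.p6. Fragments at a summit were taken from fold enrichment values that gave a whole number within 0.01 (85.7% of untreated and 76.6% of KCl regions of Rpc155). Overlap and distance code was tested on simulated data. Python 3.11.15, pandas 2.3.3 and scipy 1.17.1 were used.

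Members and lists were chosen with earlier results of these data known. Named were the 10 strongest members, the 5 highest and 5 lowest ratios of Gtf3c1 and of H3K27ac, up to 4 members per gene list, 3 regions on each side of the 1 kb limit and genes with 3 members; other members of the polymerase III and immediate-early lists were also named, and Srsf5, Klf6 and Uspl1 distances were chosen after their values were seen. Lists written as symbol patterns hold every matching symbol. A few genes that the rule names are not reported here.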

Additional observations from a re-analysis of the deposited data

How the results depend on the processing

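Of 9 results, 6 are a count or percents with no direction, and the 3 median log2 ratios stayed above 0 under the 5 alternatives, which were a q of 1e-05 or lower in every list, an overlap of 50% of the shorter region, Rpc155 lists of equal length, a limit of 500 bp, and a KCl region of Rpc155 within 1 kb counting as kept. None of the 9 moved at 500 bp. At a q of 1e-05 or lower there were 573 lost regions, 73.7% of candidates; 82.5% of them had KCl Gtf3c1, 97.2% H3K27ac and 63.0% H3K4me1, and the median log2 ratios were 0.055 for Gtf3c1 and 0.10 for H3K4me1. With lists of equal length there were 772 lost regions, 68.0% of candidates; 89.8% had KCl Gtf3c1, and the ratios were 0.031 (interval −0.0091 to 0.084, which includes 0) and 0.10. With 50% overlap 81.4% of candidates were lost, and 79.4%, 95.2% and 46.5% of them had KCl Gtf3c1, H3K27ac and H3K4me1. Counting a KCl region within 1 kb as kept left 73.0% lost. The cause was not tested.

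Most lost regions rest on few fragments over background, and the untreated Rpc155 list is the longer one, so list length and loss cannot be told apart without replicates. No paired analysis was possible because each antibody and condition has 1 list. For the same reason there was no replicate to leave out.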
